A study of Mus musculus with 3 samples.

Results

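The nuclear genes of the mitochondrial respiratory chain were followed in Ser5-phosphorylated Pol_II ChIP-Seq of resting and LPS-stimulated mouse macrophages. They were taken by symbol from the GENCODE M1 gene models of mm9. All protein-coding genes on chromosomes 1 to 19 and X whose symbol begins with Nduf, Uqcr, Cox4, Cox5, Cox6, Cox7, Cox8 or Atp5 were included, together with Sdha, Sdhb, Sdhc, Sdhd and Cyc1. This gave 93 of 22350 protein-coding gene models. Of these, 39 were grouped with complex I by their names, 4 with complex I assembly, 4 with complex II, 9 with complex III, 19 with complex IV and 18 with complex V. The list follows names, so it holds a few genes that do not encode a subunit of the complex they are grouped with. Cox4nb, a neighbour of Cox4i1, belongs to a complex of the endoplasmic reticulum membrane, and Ndufa4 is now assigned to complex IV. The symbol Atp5l-ps1 names a pseudogene, and Ndufb8 has 2 overlapping gene models under different identifiers.

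The cells were primary bone marrow-derived macrophages of female Fvb mice (Fvb/Hsd in the methods of the study) on the seventh day of differentiation. There were 3 libraries, 1 of each kind: a Ser5 ChIP from untreated cells, a Ser5 ChIP from cells stimulated for 2 h with 10 ng/ml lipopolysaccharide (LPS, a component of bacterial cell walls), and the input of untreated cells, which is DNA without immunoprecipitation. No genetic change is given in the labels, and neither the age of the mice nor the number pooled is stated there. With 1 library per condition there was no replicate check and no test. The intervals given below are exact 95% intervals that cover counting error only, and tags from PCR are not independent molecules.

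The respiratory chain passes electrons from NADH and succinate to oxygen and uses the energy released to pump protons across the inner mitochondrial membrane. Complex I takes electrons from NADH and complex II from succinate. Complex III passes them to cytochrome c and complex IV to oxygen, and complex V, the ATP synthase, makes ATP from the proton gradient. Most subunits are encoded in the nucleus, and several complex IV subunits have isoforms that are used in muscle, lung or testis. Macrophages given LPS are known to move from respiration towards glycolysis and to change the use of complex I and complex II. Phosphorylation of serine 5 in the repeats of the Pol_II tail marks polymerase that has begun transcription and accumulates close to transcription start sites (TSS).

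Promoters of paired complex IV isoforms, whose values are given below, and of motif-bearing genes are shown here. Each stretch is the 150 bases directly upstream of the TSS of the gene model in mm9, read 5′ to 3′ on the strand of the gene. Capitals mark a match to the NRF1, ETS/GABP, YY1, ERR or CRE motif. Matches to the other motifs searched are not marked. The widely used and the muscle form of subunit 6a come first, then the widely used and the muscle form of subunit 7a, then Atp5g3, which encodes a ring subunit of the ATP synthase, and Cox4i1. They lie at chr5:115798991-115799140 (Cox6a1, minus strand), chr7:135349881-135350030 (Cox6a2, minus), chr9:79607661-79607810 (Cox7a2, minus), chr7:30969040-30969189 (Cox7a1, plus), chr2:73749384-73749533 (Atp5g3, minus) and chr8:123192040-123192189 (Cox4i1, plus).
Cox6a1: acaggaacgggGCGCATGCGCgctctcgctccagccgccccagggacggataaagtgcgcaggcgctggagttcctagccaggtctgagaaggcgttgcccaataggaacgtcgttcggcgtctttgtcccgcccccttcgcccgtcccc
Cox6a2: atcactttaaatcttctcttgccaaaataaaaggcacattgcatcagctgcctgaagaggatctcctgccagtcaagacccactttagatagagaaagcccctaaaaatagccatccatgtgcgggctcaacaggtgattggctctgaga
Cox7a2: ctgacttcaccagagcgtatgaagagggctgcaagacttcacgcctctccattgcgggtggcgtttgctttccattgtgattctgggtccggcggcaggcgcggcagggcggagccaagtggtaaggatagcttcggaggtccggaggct
Cox7a1: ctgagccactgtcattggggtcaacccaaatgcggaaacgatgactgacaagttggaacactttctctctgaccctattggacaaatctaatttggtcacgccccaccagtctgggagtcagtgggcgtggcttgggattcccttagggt
Atp5g3: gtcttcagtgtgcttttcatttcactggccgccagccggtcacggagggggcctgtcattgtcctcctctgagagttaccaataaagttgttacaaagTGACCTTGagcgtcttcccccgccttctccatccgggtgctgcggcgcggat
Cox4i1: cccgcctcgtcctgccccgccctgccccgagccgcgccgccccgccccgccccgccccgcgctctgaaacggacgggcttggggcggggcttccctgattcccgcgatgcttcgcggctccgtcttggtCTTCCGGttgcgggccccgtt

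The capitals in Cox6a1 are a match to the NRF1 motif on both strands, those in Atp5g3 to the ERR motif and those in Cox4i1 to the ETS/GABP motif. No match to the 5 marked motifs (NRF1, ETS/GABP, YY1, ERR and CRE) was found in these 150 bases of Cox6a2, Cox7a2 or Cox7a1. Motifs were searched on both strands from 250 bases before to 50 bases after the TSS of every protein-coding gene model. GCGCATGCG, bound by NRF1, was found in 8 of 93 respiratory chain promoters (8.60%), in 2.10% of all coding promoters and in 3.79% of those with Ser5 signal over input. CAAGGTCA, bound by the oestrogen-related receptors, was found in 4 (4.30%) against 1.30% and 1.02%, and AAGATGGCG, bound by YY1, in 6 (6.45%) against 1.83% and 3.29%. CCGGAAG, bound by ETS factors such as GABP, was found in 18 (19.4%) against 10.8% and 19.2%. Both Cox4i1 and Cox4nb, which share 1 promoter, are among these 18, with 2 matches each. The cyclic AMP response element TGACGTCA was found in 4 (4.30%) against 2.33% and 3.48%. GGANTTTCC, a form of the NF-kB site, was found in 0 of 93 promoters against 1.25% and 1.18%, and GAAANNGAA, a form of the interferon-stimulated response element, in 9 (9.68%) against 8.93% and 7.58%. The GC box GGGCGG was found in 46.2% of the respiratory chain promoters against 43.5% and 63.8%, CCAAT in 38.7% against 37.9% and 38.5%, and TATAAA in 9.68% against 13.4% and 7.02%. The median observed-to-expected CpG ratio over the same window was 0.785 for the respiratory chain genes, 0.534 for all coding genes and 0.770 for those with Ser5 signal over input. These matches are descriptions of letters in a window, and no binding of these factors was measured.

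The libraries held 7616771 (Ser5 untreated), 6249819 (Ser5 LPS) and 7533308 (input) tags on chromosomes 1 to 19 and X. Values are tags whose 5′ end lay within 1 kb of the TSS, and TPM here means tags per 1000000 of these totals. Tags were 45 bases long in the file labelled untreated, 30 in the file labelled LPS and 36 in the input file. The methods of the study assign the Ser5 lengths the other way round. All 8 genes chosen as a check of the LPS label, among them Tnf and Cxcl10, were at least 4.04-fold higher in the library labelled LPS. Of the macrophage markers, Csf1r, Emr1, Itgam, Lyz2 and Cd68 had a TSS peak in both Ser5 lists, and Spi1 was not found under that symbol. None of the 4 markers each of T cells, B cells, fibroblasts, neutrophils and erythroid cells had a peak in either list. Start positions of the respiratory chain windows that match once in mm9 with at most 2 mismatches averaged 91.1% at 30 bases and 95.9% at 45 bases, so the LPS library could place tags at fewer positions.

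Nearly every respiratory chain gene carried Ser5 Pol_II at its TSS. In untreated cells 86 of 93 had a deposited peak within 1 kb of the TSS, where 48% of all coding genes did. After LPS 85 of 93 had one, against 45.9% of all coding genes. Of the 90 genes with at least 10 tags over the untreated and input libraries, 88 were at least 2-fold over input in untreated cells, and 71.9% of all such coding genes were. After LPS 84 of 90 were at least 2-fold over input, with 70.4% of coding genes. In chromatin of a whole culture, more polymerase per cell and more cells with polymerase cannot be told apart. The median over the 93 genes was 23.2 TPM in untreated cells, 18.7 TPM after LPS and 2.26 TPM in the input. The medians over all coding genes were 1.71 and 1.44 TPM, and those over the 10981 coding genes over input in either Ser5 library were 22.7 and 18.4 TPM. The respiratory chain promoters therefore carried about as much Ser5 Pol_II as a typical occupied promoter, and 6 of 93 were among the 1000 coding genes with the most.

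**Figure D1:**
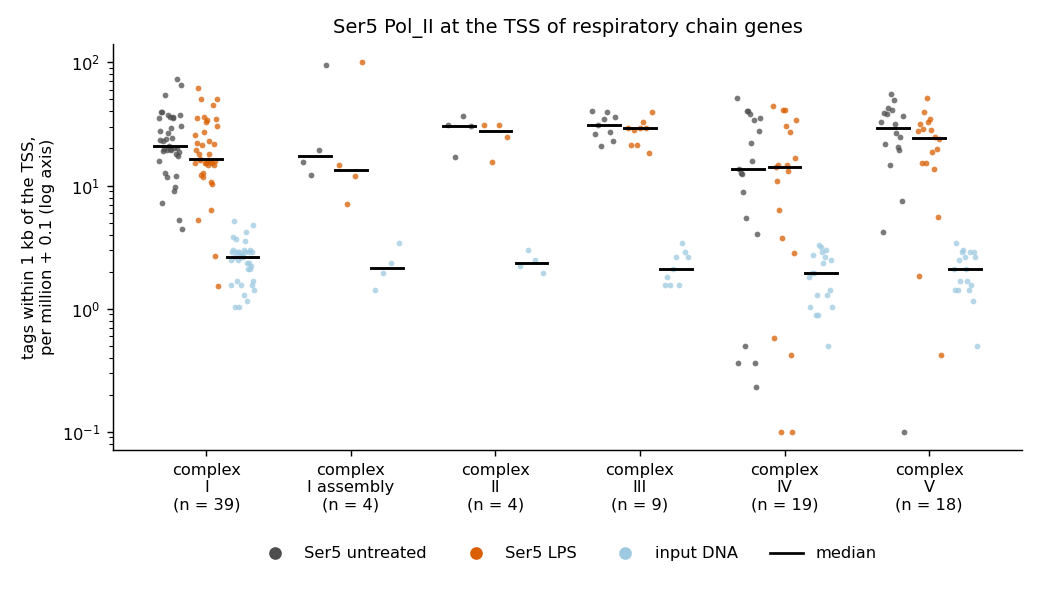
TPM within 1 kb of the TSS, with 0.1 added, on a log axis for each respiratory chain gene, by complex, in the Ser5 untreated, Ser5 LPS and input libraries (1 point per gene and library, bars at the medians). The lowest Ser5 points are 4 complex IV isoforms and Atp5l-ps1 in complex V, and 88 genes are at least 2-fold over input in untreated cells.

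The signal was highest close to the TSS. Averaged over the 93 genes, the highest 100-base bin was the first one downstream of the TSS, with 51.9 TPM per kb in untreated cells, 44.7 after LPS and 1.30 in the input. From 1000 to 2000 bp downstream the mean was 2.10 TPM per kb in untreated cells, 1.81 after LPS and 0.854 in the input. Among the 88 genes with at least 10 Ser5 tags, the most tagged bin lay within 300 bp of the TSS in 73 genes in untreated cells and in 76 after LPS. Ndufa13 was an exception, since 262 of its 562 untreated tags lay 500 to 1000 bp downstream of the 5′ end of its gene model.

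**Figure D2:**
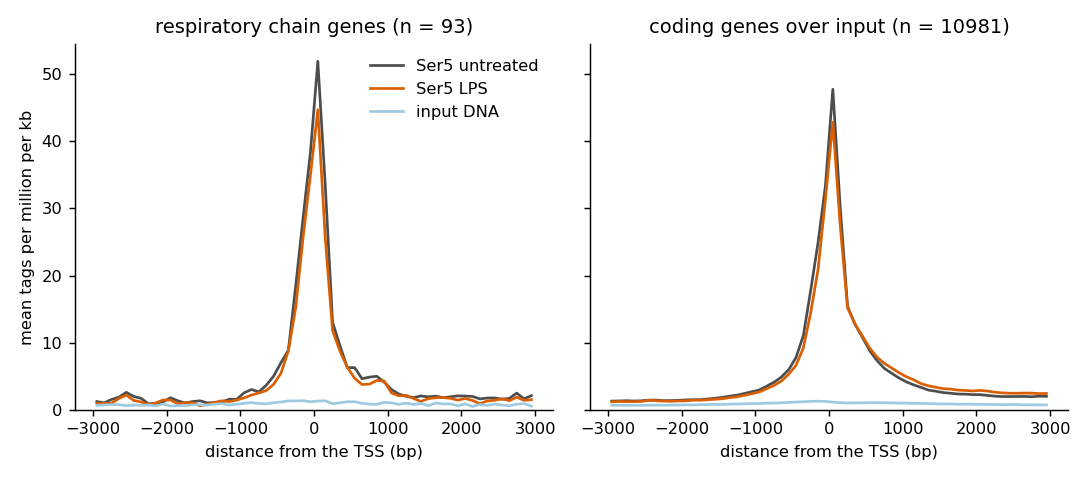
Mean TPM per kb in 100-base bins from 3000 bp upstream to 3000 bp downstream of the TSS, for the 93 respiratory chain genes and for the 10981 coding genes over input, in the Ser5 untreated, Ser5 LPS and input libraries. The curves of both gene sets peak in the first bin downstream of the TSS, at 51.9 and 47.8 TPM per kb in untreated cells.

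Summed over genes, the LPS to untreated ratio downstream of the window was lower for the respiratory chain than for the coding genes over input, but the medians over single genes were not. From 1000 to 2000 bp it was 0.860 (0.794 to 0.932; 1490 untreated and 1052 LPS tags) over the 93 genes and 1.21 over the 10981 coding genes over input. From 2000 to 3000 bp it was 0.777 (0.711 to 0.847; 1323 and 843 tags) against 1.26. A sum is weighted by its most tagged genes. The sums also cover fixed zones of all genes of a set, which run past the gene end in short genes. The medians cover the stretch from 1 kb to the gene end in genes with enough tags, so the measures differ in more than weighting. Gene by gene, the median ratio beyond 1 kb was 0.875 over the 82 respiratory chain genes over input with enough tags there and 0.862 over the 10324 coding genes over input. In the first 1000 bp the sums gave 0.849 and 0.970, and in the 1000 bp upstream 0.873 in both sets.

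The LPS to untreated ratio at the TSS was close to that of coding genes in general, with fewer large changes. In 88 genes at least 10 Ser5 tags were counted, and 0 of these were 2-fold or more higher after LPS, where 5.61% of 12536 coding genes were. A ratio at or below 0.5 was seen in 3 (3.41%), where 14.1% of coding genes had one. Of 10961 coding genes over input with enough tags, 4.67% were at least 2-fold higher and 12.8% at least 2-fold lower. The median ratio of the 88 respiratory chain genes was 0.834, with 25% of them below 0.719 and 25% above 0.956. Over all coding genes the median was 0.831 and the same quartiles were 0.625 and 1.07. The shift of the median below 1 was thus shared with the background and depends on the scaling: relative to tags outside peaks the medians were 0.897 and 0.894. The interval of the ratio lay below 1 in 33 of 88 genes (37.5%, against 38.1% of coding genes) and above 1 in 2 (2.27%, against 11.5%). Within 1.5-fold of equal lay 71 of 88 genes, or 80.7%, and 60.4% of coding genes. The Spearman rho between untreated and LPS levels was 0.942 over the 88 genes and 0.899 over the 12536 coding genes, all measured in the same 2 libraries.

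**Figure D3:**
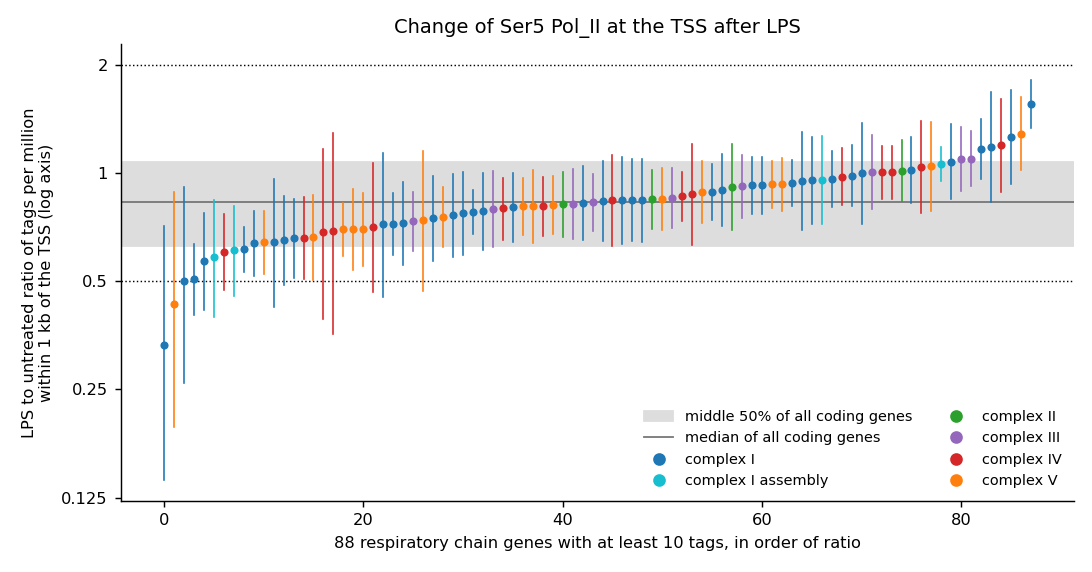
LPS to untreated ratio of TPM within 1 kb of the TSS, on a log axis, for the 88 respiratory chain genes with at least 10 Ser5 tags, in order of ratio and coloured by complex, with exact 95% intervals for counting error. The grey band is the middle 50% of coding genes (0.625 to 1.07), the grey line their median, and dotted lines mark 2-fold changes, with 3 genes at or below the lower line and none above the upper one.

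The complexes resembled each other. The median ratio was 0.837 for complex I (39 genes), 0.784 for complex I assembly (4), 0.879 for complex II (4), 0.853 for complex III (9), 0.840 for complex IV (15 of 19 with enough tags) and 0.807 for complex V (17 of 18). Gene families used for comparison gave 0.909 for cytosolic ribosomal proteins (81 genes), 0.804 for mitochondrial ribosomal proteins (76) and 0.969 for proteasome subunits (40). In the same order, 0, 5 and 1 of their genes were at least 2-fold lower, and 0, 0 and 4 at least 2-fold higher. Few large changes were thus not particular to the respiratory chain. The spread within each complex was wider than these distances between complexes.

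In complex I, the core subunits carry the flavin and the iron-sulfur clusters through which electrons pass. Ndufv1, which binds NADH, had 132 tags untreated, 91 after LPS and 22 in the input, a ratio of 0.840 (0.636 to 1.11). Its partner Ndufv2 had 282, 223 and 19 tags, a ratio of 0.964 (0.805 to 1.15). Ndufs1, with the largest set of clusters, had 272, 206 and 20 tags and a ratio of 0.923 (0.766 to 1.11). All 3 had intervals that include 1.
Ndufs7, which lies at the ubiquinone site, had 145, 100 and 27 tags, with a ratio of 0.841 (0.645 to 1.09). Ndufs3, a subunit of the same arm, had 211, 139 and 22 tags, a ratio of 0.803 (0.643 to 0.999). Ndufs8, another cluster carrier, had 496, 317 and 35 tags, a ratio of 0.779 (0.674 to 0.899). These 6 core genes lay between 0.779 and 0.964, and of them only Ndufs3 and Ndufs8 had intervals below 1.

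The highest untreated levels were in genes of complex I and complex V. Ndufaf3, a complex I assembly factor, had 720 tags untreated, 624 after LPS and 25 in the input (94.5, 99.8 and 3.32 TPM), the highest of the 93 genes in both Ser5 libraries and 159th among all coding genes in untreated cells. Of its untreated tags 472 lay in the 500 bp upstream of the TSS. Another annotated gene, CT010508.1, lies within 1 kb of that TSS on the upstream side, and the 3′ end of Ndufaf3 lies within 1 kb of Impdh2. Ndufa13, also known as GRIM-19, had 562, 283 and 17 tags, and its ratio of 0.614 (0.530 to 0.709) was well below that of Ndufaf3, 1.06 (0.947 to 1.18). The Tssk6 TSS lies in the Ndufa13 window. Ndufb9, an accessory subunit, had 412, 317 and 21 tags, a ratio of 0.938 (0.807 to 1.09), with Tatdn1 starting 80 bp away on the other strand. Ndufs8 and Atp5b made up the highest 5.

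Complex II genes had intervals that include 1. Sdha, the flavoprotein that oxidises succinate, had 277 tags untreated, 192 after LPS and 18 in the input, a ratio of 0.845 (0.699 to 1.02). Sdhb, the iron-sulfur subunit, had 128, 96 and 22 tags, a ratio of 0.914 (0.694 to 1.20). Of the membrane anchors, Sdhc had 231, 155 and 14 tags with a ratio of 0.818 (0.663 to 1.01). Sdhd had 234, 195 and 16 tags with a ratio of 1.02 (0.835 to 1.23). All except Sdhb start within 108 bp of another coding gene on the other strand, so their windows hold tags of both genes.

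In complex III, the intervals of Uqcrfs1 and Uqcr11 lay below 1 and those of the other 7 genes included 1. Cyc1, cytochrome c1, had 235 tags untreated, 177 after LPS and 11 in the input, a ratio of 0.918 (0.751 to 1.12). Uqcrfs1, the Rieske iron-sulfur protein, had 298, 203 and 11 tags, a ratio of 0.830 (0.691 to 0.996). Uqcrc1 and Uqcrc2, the core proteins, had ratios of 1.01 (0.792 to 1.27) and 0.853 (0.702 to 1.03). The 9 genes lay between 0.734 (Uqcr11, a small subunit; 0.607 to 0.884) and 1.09 (Uqcrh, the hinge protein).

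In complex V, the catalytic head is built from the products of Atp5a1 and Atp5b, with that of Atp5c1 in the central stalk. Atp5a1 had 311 tags untreated, 206 after LPS and 19 in the input, a ratio of 0.807 (0.674 to 0.966). Atp5b had 418, 319 and 22 tags, a ratio of 0.930 (0.801 to 1.08). Atp5c1, the central stalk subunit, had 378, 216 and 15 tags and a ratio of 0.696 (0.586 to 0.825), and Kin starts 83 bp away on the other strand. Atp5k, the small membrane subunit e, was one of the 2 genes whose interval lay above 1, with 147, 155 and 11 tags and a ratio of 1.29 (1.02 to 1.62).

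Of the 7 complex IV isoforms known from a few tissues, 4 were at or below the input and 3 had Ser5 peaks. Cox4i2 (lung form) had 2 tags untreated, 3 after LPS and 7 in the input. Cox6a2 (heart and skeletal muscle) had 3, 0 and 9. Cox7b2 and Cox8c (testis) had 1, 0 and 3 and 2, 2 and 9. These 4 were at or below the input on the TPM scale and had no peak, and no fold change is given for them.
Cox7a1, the heart and skeletal muscle form of subunit 7a, had 267 tags untreated, 214 after LPS and 7 in the input (35.1, 34.2 and 0.929 TPM). This was as high as its widely used counterpart Cox7a2 (288, 191 and 21 tags; 37.8, 30.6 and 2.79 TPM), and both had peaks in both lists. No other annotated gene start lies within 1 kb of the Cox7a1 TSS, 226 of its untreated tags lay within 500 bp of it, and its 3′ end lies within 1 kb of Capns1. Its start positions were unique at 76.7% for 30 bases and 86.9% for 45 bases.
Cox8b, another heart and skeletal muscle form, had 67, 39 and 6 tags, against 168, 91 and 17 for Cox8a. Its untreated tags were spread over the window, 49 of them downstream of the TSS, and its 3′ end lies within 1 kb of Psmd13. Cox6b2, a testis form, had 30, 17 and 10 tags, which was 2.97-fold over input in untreated cells and 2.05-fold after LPS, and a peak in both lists. Cox6b1 had 119, 82 and 19 tags.
The remaining widely used forms were occupied: Cox4i1 with 309, 255 and 24 tags, Cox6a1 with 260, 170 and 22, and Cox7b, the weakest, with 41, 23 and 6. Cox4nb starts 178 bp from Cox4i1 on the other strand and had the same 309 and 255 tags, so these counts are of largely the same tags. Whether any of these genes yields a stable RNA was not measured.

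**Figure D4:**
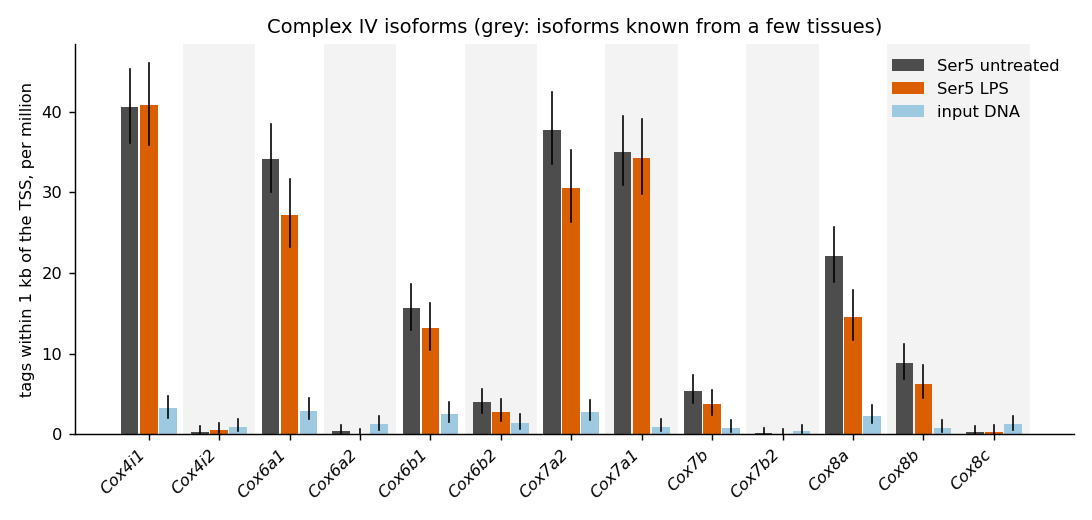
TPM within 1 kb of the TSS for complex IV isoforms in the Ser5 untreated, Ser5 LPS and input libraries, with exact Poisson 95% intervals for counting error; isoforms known from a few tissues stand on a grey ground beside their widely used counterparts. Cox7a1 reaches 35.1 and 34.2 TPM in the Ser5 libraries, whereas Cox4i2, Cox6a2, Cox7b2 and Cox8c stay at or below the input.

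The highest ratio belonged to Ndufa2, an accessory subunit of complex I. It had 301 tags untreated, 385 after LPS and 38 in the input, a ratio of 1.56 (1.34 to 1.82). Ik starts 108 bp away on the other strand, and tags of the 2 genes cannot be told apart in this window. The next highest after Atp5k were Ndufa3 at 1.26 (0.934 to 1.70; 91 and 94 Ser5 tags), Cox7a2l, a supercomplex factor, at 1.19 (0.885 to 1.61), Ndufab1, the mitochondrial acyl carrier protein, at 1.18 (0.830 to 1.68), and Ndufa10 at 1.17 (0.965 to 1.42). Their intervals include 1.

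The 3 ratios past 2-fold came from weakly tagged windows. The second Ndufb8 model (ENSMUSG00000091471.1) had 33 tags untreated, 9 after LPS and 10 in the input, a ratio of 0.332 (0.140 to 0.710), and no peak. The first Ndufb8 model (ENSMUSG00000025204.4) had 158, 94 and 11 tags and a ratio of 0.725 (0.556 to 0.942). The start of the second model lies inside the first, on the same strand, so its window covers part of the first model. Atp5d, which encodes a central stalk subunit, had 31, 11 and 10 tags and a ratio of 0.432 (0.196 to 0.884). At the start shared by most of its transcripts Atp5d had 175, 100 and 20 tags and a ratio of 0.696 (0.539 to 0.895).
Ndufa4l2, a paralogue of Ndufa4 known to be induced by hypoxia, had 39, 16 and 11 tags and a ratio of 0.500 (0.261 to 0.916), just inside the 2-fold limit. With a window of 500 bp on each side the ratios of Ndufa4l2, Atp5d and this Ndufb8 model were 0.975, 0.696 and 0.508, all short of 2-fold, while Ndufa4 (0.495; 239 and 97 tags) and Atp5f1, a peripheral stalk subunit of the ATP synthase (0.366; 20 and 6 tags, against 251 and 174 in the wider window), passed it.
In the window of 1 kb Ndufa4 stood just outside the limit, with 272, 113 and 26 tags and a ratio of 0.506 (0.403 to 0.633), on many more tags. With only the start positions that are unique at 30 bases it had 213 and 110 Ser5 tags and a ratio of 0.629 (0.495 to 0.796). Phf14 starts 363 bp away on the other strand. Ndufb7, an accessory subunit, had 137, 64 and 15 tags, a ratio of 0.569 (0.416 to 0.771). Ndufaf4, an assembly factor, had 92, 44 and 14 tags, a ratio of 0.583 (0.397 to 0.844).

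Over whole gene models, 2 of 90 genes were at least 2-fold lower after LPS and 0 were at least 2-fold higher, where 11.2% and 5.82% of coding genes were. They were the second Ndufb8 model (150 and 57 tags) and Uqcr10 (82 and 32 tags), a small complex III subunit. The median ratio over gene models was 0.833, against 0.873 for coding genes. The Atp5o model spans 247290 bp and several other genes, so its 4502 untreated and 5745 LPS tags are not those of Atp5o alone.

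Beyond 1 kb of the TSS, 11 of 84 gene models with at least 1000 bp and 10 tags there were at least 2-fold lower after LPS, or 13.1%, where 12.1% of coding genes were. At least 2-fold higher were 2, Ndufa3 (19 and 34 tags) and Ndufb11 (4 and 7 tags), where 6.54% of coding genes were. The median ratio was 0.869, against 0.886 for coding genes. The share of lower genes was near the background. Of the 11, Ndufb7 and the second Ndufb8 model were also among the 6 lowest ratios at the TSS, and the other 9 were not.
Sdhb had 523 tags untreated, 194 after LPS and 110 in the input there (4.04, 1.83 and 0.859 TPM per kb), a ratio of 0.452 (0.381 to 0.534), while its TSS interval included 1. From 1 to 4 kb it had 210, 74 and 26 tags, and from 4 kb to its 3′ end 313, 120 and 84. No other annotated gene overlaps Sdhb.
Ndufs7 had 147, 47 and 49 tags beyond 1 kb, a ratio of 0.390 (0.274 to 0.545), which left the LPS library at 1.13 TPM per kb against 0.975 in the input. Ndufv3, an accessory subunit, had 124, 34 and 37 tags, a ratio of 0.334 (0.222 to 0.492), against 1.02 at the TSS. Ndufb9 had 118, 38 and 35 tags, a ratio of 0.392 (0.265 to 0.570). In these 3 genes the LPS library was near the input on the TPM scale. That scale divides by all tags, and 53.4% of LPS tags but 4.55% of input tags lay in peaks. Genes without Ser5 signal can therefore lie below the input: the 4 T cell marker gene models had a median of 0.239 of the input after LPS. Whether Ser5 fell to background in the 3 genes cannot be read from these values.
Atp5j2, the membrane subunit f, had 198, 78 and 36 tags, a ratio of 0.480 (0.365 to 0.627). The remaining 6 were Ndufb7, both Ndufb8 models, Ndufv1, Uqcr10 and Uqcr11, with 4 to 53 LPS tags. The Ndufb8 models overlap, so some tags are counted in both of them. Sdha, Sdhc and Sdhd had ratios of 0.981, 1.05 and 1.35, with intervals that include 1. How many positions a 30-base tag could not place was not computed for these stretches.

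**Figure D5:**
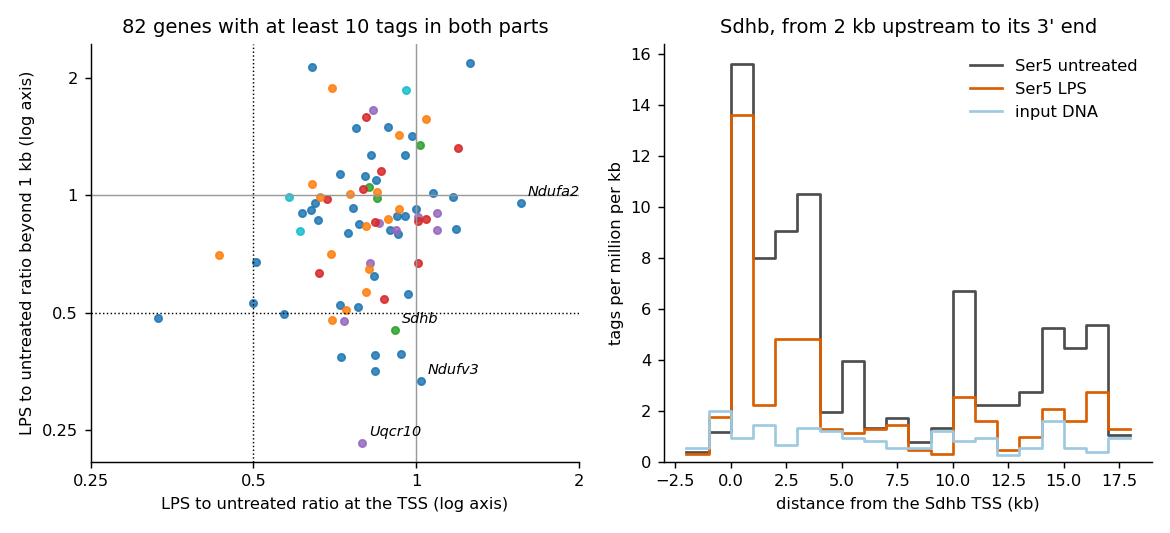
Left, LPS to untreated ratio beyond 1 kb of the TSS against the ratio at the TSS, both on log axes, for 82 respiratory chain genes with at least 10 tags in both parts, coloured by complex as in the plot of ratios in order. Right, TPM per kb in steps of 1 kb from 2 kb upstream of the Sdhb TSS to its 3′ end, where the untreated line stands above the LPS line from 1 to 4 kb (210 and 74 tags).

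Shared promoters were frequent. A coding gene started within 1 kb upstream on the other strand of 23 of 93 genes (24.7%), of 7.15% of all coding genes and of 13.4% of the coding genes over input. The share was 20.8% among the mitochondrial ribosomal protein genes, 10.6% among the cytosolic ones and 11.9% among the proteasome subunit genes. The 23 hold both Cox4i1 and Cox4nb, which share 1 promoter. The pairs were 3 to 363 bp apart, with Ndufs1 and Eef1b2 the closest. The 23 genes had a median of 31.6 TPM in untreated cells and 28.0 TPM after LPS, and the other 70 genes had 20.6 and 16.0 TPM. The median LPS to untreated ratios were 0.845 and 0.830. The higher level counts the tags of both genes of a pair.

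Other genes of the pathway were occupied as well, and their ratios stand beside a median of 0.831 over all coding genes, of which 14.1% were at least 2-fold lower and 5.61% at least 2-fold higher. Among 22 genes of electron carriers and complex assembly, all had a peak in both lists. At least 2-fold lower was 1, Nubpl, an iron-sulfur protein for complex I (93 and 36 tags, ratio 0.472), and 0 were at least 2-fold higher. Their median ratio was 0.719. Cycs, cytochrome c, had 291 and 335 tags (1.40), and Cox17, a copper chaperone of complex IV, had 191 and 245 (1.56).
Of 16 genes of the TCA cycle and pyruvate dehydrogenase, 0 were 2-fold higher or lower, and the median was 0.714. Ratios ran from 0.559 for Suclg2 (61 and 28 tags) to 1.34 for Dld, the shared dihydrolipoamide dehydrogenase (185 and 203 tags). Idh3a, a subunit of isocitrate dehydrogenase, was at 0.561 (163 and 75 tags). Of 10 regulators of mitochondrial genes, 9 had enough tags and 0 were 2-fold higher or lower. The median over the 9 was 1.01, with 5 above 1. Nrf1, Gabpa and Esrra, whose products bind the NRF1, ETS/GABP and ERR motifs, had ratios of 1.01, 1.08 and 1.13. Tfb2m, Tfb1m, Polg and Ppargc1b had ratios of 0.517, 0.626, 0.661 and 0.690, with intervals below 1. The coactivator gene Ppargc1a had 2, 0 and 8 tags.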

How the data were processed

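Ser5 Pol_II ChIP and input DNA of primary macrophages were sequenced as 1 library each. The authors aligned reads with Bowtie (mm9; 2 mismatches allowed, reads with several placements dropped) and called peaks per library against input with MACS at p = 1e-05; versions are not given in the sources used here. The deposited files hold aligned tags, 1 per line trimmed from longer reads, and peaks whose deposited score is a multiple of −log10 of the MACS p-value.

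Tags were counted at their 5′ ends in TSS windows of 1 kb on each side, gene models and the stretch beyond the window, with 1 added to the deposited start, and divided by the library's tags on chromosomes 1 to 19 and X (Python 3.11.15, NumPy 2.4.6, SciPy 1.17.1, Numba 0.67.0). A gene was called at a ratio of 2 or more with at least 10 tags over both libraries. A gene with 0 tags was given 0.5. Ratios have exact conditional binomial (Clopper-Pearson) intervals and levels exact Poisson intervals, for counting error only. A peak counted where it overlapped the window by 1 bp. Sequences were read from the mm9 genome. Counting, intervals and the search for repeated positions were tested on simulated data.

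The genes, lists and motifs were chosen with earlier results of these data known. Named genes were complex II genes and Cyc1, core complex I and F1 genes, the paired complex IV isoforms, the 5 highest untreated levels, and the 6 highest and 6 lowest ratios among genes with at least 30 Ser5 tags. Genes named beyond 1 kb, over gene models and in the pathway lists, and Atp5o, Atp5f1, Cox4nb, Uqcrc1, Uqcrc2, Uqcrfs1, Uqcr11 and Uqcrh, were chosen after their values were seen. One item covered by this rule is not reported here. Alternatives covered scaling, duplicate tags, tag shift, tag minimum, window, TSS choice, shared promoters, repeated positions and peak threshold.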

Additional observations from a re-analysis of the deposited data

How the results depend on the processing

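No paired analysis was possible because each condition has 1 library. Scaling to tags outside peaks moved the median LPS to untreated ratio of respiratory chain genes. It became 0.897 at the TSS and 0.935 beyond 1 kb. The medians of all coding genes moved as well, to 0.894 and 0.954. Over the gene, 1 of 90 gene models was then at least 2-fold lower, against 1559 of 17386 coding genes. Beyond 1 kb, 7 of 84 were at least 2-fold lower and 3 higher, against 1608 and 1258 of 16444 coding genes. Under this scaling 88 of 90 respiratory chain genes were at least 2-fold over input at the TSS in untreated cells and 88 of 90 after LPS. Among all coding genes 11559 of 14858 and 11409 of 14535 were. Start positions unique at 30 bases gave a median of 0.877 at the TSS. The same median was not computed for all coding genes, so this value has no background. With no filter on low counts 1 of 93 genes, Atp5l-ps1 with 0 and 2 tags, was at least 2-fold higher at the TSS, as were 2985 coding genes. Without genes that have another TSS within 1 kb, 54 of 56 respiratory chain genes were over input in untreated cells and 50 of 56 after LPS. Coding genes without another TSS gave 7725 and 7313. Peaks lay at 52 and 51 of 59 respiratory chain genes. Over the gene 1 of 56 was at least 2-fold lower, with 1624 such coding genes. Beyond 1 kb 1 of 50 was at least 2-fold higher, with 914 such coding genes. These sets are smaller by construction. How many such coding genes were tested is not given here, so these counts have no background share. The count of respiratory chain genes at least 2-fold higher beyond 1 kb was 0 of 83 with 1 tag per position. It was 1 of 83 with tags moved 75 bp and 1 of 78 with a filter of 30 tags. In the same order, 996, 1082 and 849 of all coding genes were. Alternatives for counts beyond 1 kb were added after seeing the data. Depth limits genes such as Cox6b2 (30 and 17 tags) and Atp5d (31 and 11), whose intervals are wide, and the tag lengths of 45 and 30 bases cannot be told apart from the LPS treatment.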
